A study of Mus musculus with 15 samples.

Results

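The genes described here are the 50 of 7909 measured genes (0.632%) whose mean level stayed flat over the first 12 h of differentiation and was higher at 24 h, in neural stem cell cultures from the subventricular zone of adult mice. The rule asked for a 12 h minus undifferentiated difference of less than 0.3 in size and a 24 h minus 12 h difference of at least 0.6, both between group means on the log2 scale. The measured values of all 3 groups therefore chose these genes, and every difference between the groups below is a description and not a test. Each gene was represented by its probe set of highest mean signal, kept where that mean passed a signal level of 0.51 (log2), which 7909 of 12393 genes did. A further 157 genes showed the opposite pattern, flat over the first 12 h and lower by at least 0.6 at 24 h.

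The cells came from female C57Bl6/J mice aged 6 months, had been passaged 5 to 7 times as neurospheres, and were profiled on Affymetrix mouse arrays, 1 array per sample. Undifferentiated cells (time 0, 5 arrays) were kept in growth factors, and the 12 h and 24 h cells (5 arrays each) had been moved to poly-D-lysine in 5% serum without growth factors. Growth factor withdrawal, serum and attachment changed together and cannot be told apart, and cells kept in growth factors for the same hours are not among the samples used here. The labels do not say whether the 5 samples of each group were separate cultures, so errors and p-values cover only the spread among these samples, part or all of which may be technical.

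The labelled cell type was checked on its markers. Nes and Sox2, an intermediate filament and a transcription factor of neural stem cells, averaged 6.34 ± 0.28 and 7.54 ± 0.30 in undifferentiated cells (log2 level, SD, n = 5). At 24 h Nes averaged 4.29 ± 0.57 and Sox2 8.57 ± 0.40. The stem cell markers Egfr and Msi1 averaged 5.78 ± 0.21 and 3.85 ± 0.21 in undifferentiated cells, and 4.70 ± 0.36 and 5.16 ± 0.35 at 24 h. Glial and neuronal markers were measured in undifferentiated cells too. There Olig2 averaged 6.05 ± 0.64, Mbp 5.43 ± 0.80, Gfap, the astrocyte filament, 3.49 ± 1.82, and Sox10 2.47 ± 1.19. The neuronal markers Dcx and Tubb3 averaged 0.70 ± 0.98 and 0.89 ± 0.41, near the signal level of 0.51. Of the markers of other cells the culture could hold, 5 of 10 motile cilia or ependymal genes on the array passed the signal level. In the limma fit (adjusted p under 0.05) 3 of these were higher at 24 h than in undifferentiated cells, beside 12.7% of all genes. At 12 h 2 were higher, beside 3.3% of all genes, and 0 are among the 50. The level was also passed by 0 of 14 microglial, 0 of 10 endothelial and 1 of 10 pericyte or fibroblast genes. That gene, Pdgfrb, a growth factor receptor of pericytes, was higher at 24 h than at 12 h by 1.29 ± 0.23 (SE, adjusted p = 0.0311 in the limma fit) and than in undifferentiated cells by 1.97 ± 0.23. The summed signal of the 10 pericyte or fibroblast genes was 3.11 to 3.43 (log2) at 24 h, 2.92 to 3.06 at 12 h and 2.88 to 3.04 in undifferentiated cells, and its part in the pattern of the 50 genes was not tested. The code in a sample's title differs from the code of its array file in 13 of 15 samples, and the group would differ in 8. Groups were taken from the titles, and under the file codes 7 genes met the rule, none of them among the 50. Grouped by the file codes, limma called 0 of all genes in each of the 3 comparisons. Grouped by the titles, it called 622 at 12 h and 2536 at 24 h against undifferentiated cells, and 33 at 24 h against 12 h. The title codes end in 1 of 3 numbers, called suffixes A, B and C here, whose meaning the labels do not give.

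When growth factors are withdrawn, neural stem cells leave the cell cycle and turn towards neurons, astrocytes or oligodendrocytes. Cells of the oligodendrocyte lineage switch on lineage transcription factors and, later, the proteins of compact myelin. The Delta-like ligand Dll1 is made by cells that begin to differentiate and signals through Notch receptors to their neighbours, which are held back from differentiating.

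Differences between 24 h and 12 h (24 h minus 12 h) ran from 0.60 to 1.70 (log2) over the 50 genes, with a median of 0.69, beside a median of -0.06 over all 7909 genes. The 12 h minus undifferentiated difference ran from -0.17 to 0.29 with a median of 0.17, and was positive in 43 of the genes and negative in 7. At 24 h the genes stood 0.46 to 1.84 above undifferentiated cells, with a median of 0.87. The standard error of these differences ran from 0.13 to 0.51 with a median of 0.28. A flat mean was therefore known loosely: the 95% interval of the 12 h difference reached 0.6 in 40 of the 50 genes. The interval of the 24 h minus 12 h difference held 0 in 11 of them.

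**Figure D1:**
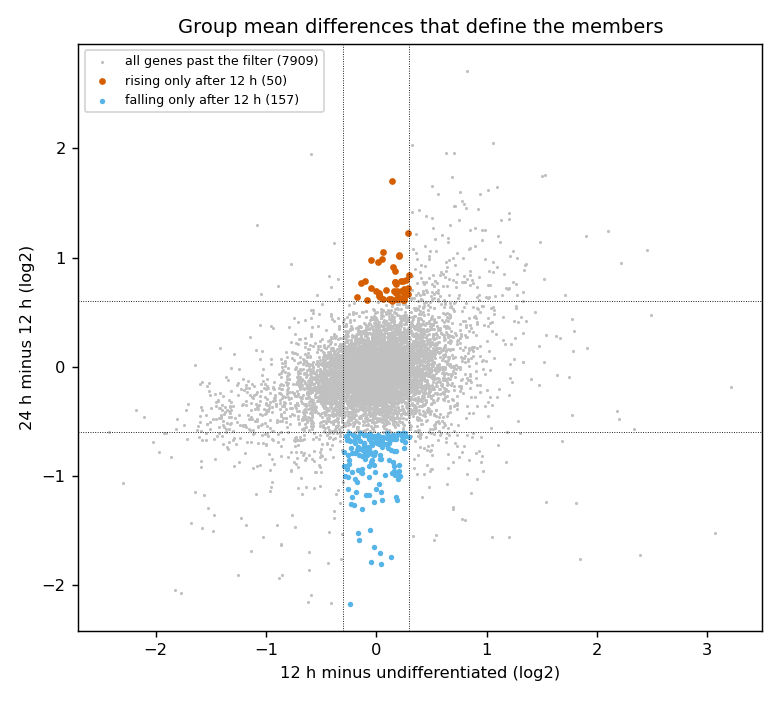
Each point is 1 of the 7909 genes, placed by its 12 h minus undifferentiated difference (x axis, log2) and its 24 h minus 12 h difference (y axis, log2) between group means of 5 arrays. Orange points are the 50 genes flat at 12 h and higher at 24 h, light blue points the 157 genes of the opposite pattern, and dotted lines mark 0.3 and 0.6; most orange points lie close to the line at 0.6.

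The genes nearest to the limits show how fine the selection was. Lsm14b, an RNA-binding protein of the Lsm family, and Fyn entered with 24 h minus 12 h differences of 0.60 and 0.61, whereas Nmb and Taf7 stayed out at 0.596 and 0.59. At the limit on the first 12 h, Dynll2 and Prkcq entered with differences of 0.29 each, and Fbp1 and Enc1 stayed out at 0.31 and 0.32.

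Only 1 of the 50 genes, Rhpn2, had an adjusted p under 0.05 in the limma fit for 24 h against 12 h, where 0.0632% of all genes were called higher (0.417% in either direction). That count moved with the fit: it was 9 of the 50 (202 of all genes called) with the title code suffix as a block, 7 (235) when consecutive title codes formed a random block, 0 (2) when they formed a fixed block, and 18 (362) without 12 h replicate 5, against 1 (33) here. In the limma fit with the fixed block 40 of the 50 had an unadjusted p under 0.05. Without a block an unadjusted p under 0.05 was reached by 39 of the 50, beside 15% of all genes. For 24 h against undifferentiated cells 34 of the 50 were called higher, beside 12.7% of all genes (32.1% in either direction), and 44 had an unadjusted p under 0.05 (42.9% of all genes). For 12 h against undifferentiated cells 0 were called by limma and 0 had an unadjusted p under 0.05, beside 7.86% of all genes called in either direction and 26.3% with an unadjusted p under 0.05. Since the rule used these same means, the counts describe the selection and carry no further weight. The median of all genes differed by -0.06 at 24 h against 12 h as deposited and by 0.08 after median centring of the arrays. With that scaling 110 genes met the rule and 93 met its opposite (54.2% of both sets in the higher direction), with quantile normalisation 60 and 113 (34.7%), against 50 and 157 as deposited (24.2%).

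Of the 50 genes, 6 belong to the oligodendrocyte lineage by textbook role. Mobp, a structural protein of compact myelin, had the largest 24 h minus 12 h difference of the 50. Its log2 levels on the 5 arrays of a group were 0.03, -0.09, 1.21, 0.46 and 0.09 in undifferentiated cells, -0.51, -0.34, 0.62, 0.66 and 1.99 at 12 h, and 0.48, 3.57, 2.77, 2.16 and 1.96 at 24 h. Replicates 2, 3 and 4 at 24 h exceeded every array of both other groups, while 24 h replicate 1 lay among the undifferentiated arrays. The 24 h mean was higher than the 12 h mean by 1.70 (95% interval 0.62 to 2.78). Means in undifferentiated cells and at 12 h both lay under the signal level of the filter, so Mobp passed it through its 24 h arrays, and no fold is given. A fainter probe set of Mobp met the rule too, with a 24 h minus 12 h difference of 1.03.

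Itpr2, an intracellular calcium release channel found in newly formed oligodendrocytes, read 2.69, 2.98, 3.19, 2.37 and 2.68 in undifferentiated cells, 2.97, 1.83, 2.84, 2.82 and 4.49 at 12 h, and 3.17, 4.08, 3.65, 4.56 and 4.55 at 24 h (log2 level). A single 12 h array, replicate 5, stood close to the highest 24 h arrays, and the other 4 lay within or below the undifferentiated range. The 24 h mean exceeded the 12 h mean by 1.01 (interval 0.21 to 1.82), 2.02-fold. Fyn, a Src-family kinase that acts in oligodendrocyte maturation, followed the same outline at a smaller size. Its levels were 6.45, 6.83, 6.85, 6.66 and 7.13 in undifferentiated cells, 6.47, 6.30, 6.46, 6.58 and 7.69 at 12 h, and 6.66, 7.35, 7.06, 7.53 and 7.92 at 24 h. The same 12 h replicate 5 lay above all but 1 of the 24 h arrays, and the 24 h minus 12 h difference was 0.61 (interval 0.06 to 1.16).

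Tspan2, a tetraspanin of myelin, had means of 1.10 ± 0.40, 1.35 ± 0.35 and 1.96 ± 0.36 at 0, 12 and 24 h (log2 level, SD, n = 5 each). Vcan, the matrix proteoglycan versican made by oligodendrocyte precursors, had means of 5.05 ± 0.37, 5.22 ± 0.56 and 5.90 ± 0.28. Myt1, a zinc finger factor of neural progenitors and the oligodendrocyte lineage, had means of 2.31 ± 0.67, 2.31 ± 1.12 and 3.00 ± 0.33. These 3 genes differed in which 12 h array was highest: replicate 5 for Tspan2, replicate 1 for Vcan and Myt1. The other Vcan probe sets past the filter were lower at 24 h than at 12 h, by -0.08 and -0.11, so the difference was seen with 1 of 3 probe sets of that gene. Of the 6 genes, 4 were called higher at 24 h than in undifferentiated cells, and Fyn and Myt1 were not.

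The start regions of Mobp and Fyn are printed because these genes carry the largest and the smallest 24 h minus 12 h difference of the oligodendrocyte group. The windows are RefSeq's on GRCm38.p6, 250 bases before to 50 after the annotated start, 5′ to 3′ on the gene's strand. In the Mobp window capitals mark ACAAAG, a core bound by Sox factors, which is read there 6 times as its reverse complement CTTTGT, and TGGGAA, the RBPJ core, read once as TTCCCA and overlapping the first of them. In the Fyn window capitals mark CCAAT, the CCAAT box, and GGGCGG, the GC box, read as CCGCCC.
Mobp, chr9:120149492-120149791, + strand: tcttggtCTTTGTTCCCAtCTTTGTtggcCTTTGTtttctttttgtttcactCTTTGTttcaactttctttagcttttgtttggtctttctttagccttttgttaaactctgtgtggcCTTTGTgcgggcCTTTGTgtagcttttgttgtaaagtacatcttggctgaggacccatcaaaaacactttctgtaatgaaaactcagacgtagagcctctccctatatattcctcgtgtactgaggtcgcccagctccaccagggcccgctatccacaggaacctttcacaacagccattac
Fyn, chr10:39369549-39369848, + strand: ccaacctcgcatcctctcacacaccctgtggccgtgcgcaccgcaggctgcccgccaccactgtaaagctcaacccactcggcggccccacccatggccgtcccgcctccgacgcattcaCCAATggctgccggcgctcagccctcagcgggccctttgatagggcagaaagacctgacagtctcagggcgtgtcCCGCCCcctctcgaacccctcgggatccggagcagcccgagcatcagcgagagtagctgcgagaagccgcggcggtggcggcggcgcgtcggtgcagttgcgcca
The GC content of these windows was 43.3% for Mobp and 69% for Fyn, beside a median of 61.3% over the windows of all tested genes.

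Around these 6 genes, most of the wider myelin programme did not meet the rule. Of 18 myelin membrane and lipid genes past the filter, Mobp and Tspan2 are among the 50, and the other 16 are not. The 18 had a median difference of 1.36 at 24 h against 12 h and 0.57 at 12 h against undifferentiated cells, beside 0.00 for all genes at 12 h. By limma, 15 of the 18 were called higher at 24 h than in undifferentiated cells, beside 12.7% of all genes. For 12 h against undifferentiated cells 0 of the 18 were called, and for 24 h against 12 h also 0. Mbp, the main protein of compact myelin, did not meet the flat limit: its mean was 0.82 ± 0.98 (SE) above undifferentiated cells at 12 h, and 2.71 ± 0.98 above 12 h at 24 h. Single 12 h arrays of Mbp ran from 2.37 to 9.64. Of 15 oligodendrocyte lineage genes past the filter, Vcan, Itpr2 and Fyn are among the 50. Of the 15, 7 were called higher at 24 h than in undifferentiated cells (12.7% of all genes). The medians of that list were 0.50 at 24 h against 12 h and 0.18 at 12 h against undifferentiated cells, with 0 genes called in either comparison. None of the 23 astrocyte genes past the filter is among the 50, and they moved over the same hours. By limma, 11 of the 23 were called higher and 2 lower at 24 h than in undifferentiated cells, beside 12.7% and 19.4% of all genes. At 12 h 6 were called higher than in undifferentiated cells, beside 3.3% of all genes. The list's median difference was 0.21 at 24 h against 12 h, where 0 of its genes were called. The list's largest differences between 24 h and undifferentiated cells are named after their values were seen. Id4, an inhibitor of differentiation, stood 3.52 ± 0.39 (SE) above undifferentiated cells, Gfap 3.35 ± 0.67 and Clu, the secreted chaperone clusterin, 2.37 ± 0.37. The 2 called lower were Cd44, at -2.57 ± 0.59, and Slc1a2, at -0.45 ± 0.17. Slc1a3 (-0.03 ± 0.20) and Aldh1l1 (0.25 ± 0.21) were among those not called.

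Notch ligands formed the second group. Dll3, a divergent Delta-like ligand, read 4.16, 4.64, 5.02, 3.56 and 2.87 in undifferentiated cells, 5.78, 3.65, 3.03, 3.11 and 4.43 at 12 h, and 5.37, 5.27, 4.83, 5.04 and 4.37 at 24 h. The 12 h arrays spanned both other groups, with replicate 1 the highest of all 15 arrays and replicates 3 and 4 lower than every other array but undifferentiated replicate 5. For Dll3 the difference between 24 h and 12 h was 0.97 with an interval of -0.03 to 1.97. Dll1, the canonical Delta-like ligand, read 3.65, 5.03, 4.99, 5.43 and 4.61 in undifferentiated cells, 6.30, 4.98, 3.85, 3.83 and 4.89 at 12 h, and 5.95, 5.81, 5.45, 4.95 and 5.04 at 24 h. As for Dll3, replicate 1 was the highest and replicates 3 and 4 the lowest of the 12 h arrays. For Dll1 the 24 h minus 12 h difference, 0.67, had an interval of -0.21 to 1.55. For both ligands the 24 h arrays were closer together than the 12 h arrays, with SDs of 0.40 and 1.14 for Dll3 and 0.45 and 1.02 for Dll1.

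Tle4, a Groucho corepressor that works with Hes repressors, read 4.36, 4.82, 5.44, 5.86 and 4.53 in undifferentiated cells, 5.50, 4.77, 4.40, 4.36 and 5.29 at 12 h, and 5.75, 5.70, 5.51, 5.55 and 5.65 at 24 h. All 24 h arrays lay above all 12 h arrays, while undifferentiated replicate 4 lay above all of them. Tle4 was higher at 24 h than at 12 h by 0.77 (interval 0.20 to 1.34), 1.70-fold. None of the 3 genes of this group was called at 24 h against undifferentiated cells. In the list of 16 Notch, Hes and Hey genes past the filter, which holds both ligands, Hey1 and Numbl were called higher at 24 h than in undifferentiated cells and Hes1 and Lfng lower. Of all genes 12.7% were called higher in that comparison and 19.4% lower. At 24 h against 12 h 0 of the 16 were called, and the list median was -0.14. Hes1, a repressor induced by Notch, was lower at 24 h than in undifferentiated cells by -1.72 ± 0.25 (SE, adjusted p = 0.000295 in the limma fit), and Jag1, another ligand, was not called, with a difference of -0.71 ± 0.31.

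The start regions of both ligands are shown because their levels moved together across the 12 h arrays. Capitals mark the CCAAT box (on the other strand, ATTGG), the GC box GGGCGG, the E-box CAGCTG bound by proneural factors, and the Sox core ACAAAG. Dll1 has a pair of annotated starts in RefSeq (GRCm38.p6).
Dll3, chr7:28301736-28302035, - strand: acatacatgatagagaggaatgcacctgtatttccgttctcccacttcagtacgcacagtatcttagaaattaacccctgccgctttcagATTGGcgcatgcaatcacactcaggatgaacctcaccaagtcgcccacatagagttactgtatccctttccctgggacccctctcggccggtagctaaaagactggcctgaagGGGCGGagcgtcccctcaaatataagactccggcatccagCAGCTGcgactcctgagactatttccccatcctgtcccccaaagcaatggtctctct
Dll1, chr17:15375774-15376073, - strand: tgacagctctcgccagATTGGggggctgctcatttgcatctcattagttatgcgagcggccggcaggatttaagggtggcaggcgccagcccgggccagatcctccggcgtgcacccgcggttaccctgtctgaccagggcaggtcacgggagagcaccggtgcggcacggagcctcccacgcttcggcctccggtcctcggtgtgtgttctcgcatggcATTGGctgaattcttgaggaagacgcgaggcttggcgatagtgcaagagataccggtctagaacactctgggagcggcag
Dll1, chr17:15376883-15377182, - strand: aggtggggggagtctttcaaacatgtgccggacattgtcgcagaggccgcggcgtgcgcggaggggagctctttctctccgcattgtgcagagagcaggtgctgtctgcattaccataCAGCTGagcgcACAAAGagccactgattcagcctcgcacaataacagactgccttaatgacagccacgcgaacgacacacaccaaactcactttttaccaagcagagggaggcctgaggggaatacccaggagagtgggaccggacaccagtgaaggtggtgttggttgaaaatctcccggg
CAGCTG stands in the Dll3 window and in the second Dll1 window, and CCAAT in the Dll3 window and, at 2 places, in the first Dll1 window.

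RefSeq windows were found for 44 of the 50 genes, 65 windows in all, and set beside 8480 windows of 6490 tested genes. Motifs were searched on both strands. CCAAT was present in 49.2% of the windows of the 50 genes, 37.9% of those of tested genes and 37.4% of all 32851 windows in the table. CAGCTG was present in 15.4%, 14.3% and 16.3% in the same order, ACAAAG in 16.9%, 13.5% and 18.7%, and GGGCGG in 63.1%, 65% and 35.7%. The remaining motifs were TATAAA (9.23%, 6.85% and 13.6%), TGGGAA (20%, 22.3% and 25.6%), CACGTG (7.69%, 10.1% and 7.15%), the forkhead core GTAAACA (4.62%, 2.43% and 3.65%) and the AP-1 core TGACTCA (4.62%, 3.49% and 5.2%). These shares were not tested, windows of the same gene overlap in places, and a match is a run of letters and not a shown binding site. Median GC content was 62.7% in the windows of the 50 genes and 61.3% in those of tested genes.

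Genes with neuronal or axonal roles made up 9 of the 50, with 24 h minus 12 h differences of 0.62 to 0.91. Dscaml1, a neuronal adhesion molecule, read 1.01, 1.01, 0.91, -0.09 and -0.16 in undifferentiated cells, 2.02, 0.42, -0.16, -0.06 and 1.21 at 12 h, and 1.90, 1.91, 1.46, 1.59 and 1.15 at 24 h. Here 12 h replicate 1 again exceeded every 24 h array, and 4 of the 5 24 h arrays exceeded every other 12 h array. The difference was 0.91 (interval 0.14 to 1.69). Scg5, a chaperone of prohormone convertase in secretory granules, had means of 3.84 ± 0.40, 4.01 ± 0.57 and 4.89 ± 0.35 at 0, 12 and 24 h, a difference of 0.88 (interval 0.33 to 1.43) between the times. Elavl3, a neuronal RNA-binding protein, had means of 2.28 ± 0.39, 2.47 ± 0.28 and 3.09 ± 0.63.

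Sema4d, a semaphorin that oligodendrocytes also make, had means of 0.65 ± 0.21, 0.90 ± 0.65 and 1.61 ± 0.35 at 0, 12 and 24 h. Lrrn1, a leucine-rich repeat membrane protein, averaged 6.61 ± 0.22 at 24 h and 5.83 ± 1.18 at 12 h, where single arrays spanned 4.60 to 7.43. Sncaip, which binds alpha-synuclein, Sez6l, a seizure-related membrane protein, and Aatk, a kinase of differentiating neurons, had 24 h minus 12 h differences of 0.78, 0.70 and 0.69. Dnm3, a neuronal dynamin, is named after its values were seen, with a difference of 0.66. Of the 9 genes, 7 were called higher at 24 h than in undifferentiated cells (34 of all 50, 12.7% of all genes), and Lrrn1 and Sez6l were not. In the list of 27 neuronal and synaptic genes past the filter, which holds Elavl3 alone of the 50, 11 were called higher at 24 h than in undifferentiated cells with a list median of 0.29. At 24 h against 12 h 0 of the 27 were called, and the list median was 0.06. In the list of 25 adhesion and axon guidance genes, which holds Sema4d alone, 11 were called higher and 5 lower at 24 h than in undifferentiated cells. Of all genes 12.7% were called higher in that comparison and 19.4% lower. At 24 h against 12 h 0 of the 25 were called higher and 3 lower, with a median of 0.10. The shares of all genes there were 0.0632% and 0.354%.

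Among genes of growth arrest, apoptosis and kinase signalling (6 of the 50), Prkcq, the protein kinase C theta isoform, had the widest spread. It read 3.10, 3.35, 3.98, 2.16 and 1.44 in undifferentiated cells, 4.78, 2.83, 1.95, 2.02 and 3.91 at 12 h, and 4.66, 4.33, 4.13, 4.43 and 4.04 at 24 h. The 24 h arrays were tight (SD 0.25) beside SDs of 1.23 at 12 h and 1.0 in undifferentiated cells, and all of them lay above all undifferentiated arrays. Between 24 h and 12 h it differed by 1.22 (interval 0.14 to 2.30). Bcl2l11, the pro-apoptotic protein Bim and a FoxO target, read 1.72, 2.20, 2.20, 2.18 and 2.04 in undifferentiated cells, 2.32, 3.11, 1.58, 1.48 and 2.88 at 12 h, and 3.94, 2.92, 3.26, 3.30 and 3.05 at 24 h. All 24 h arrays lay above all undifferentiated arrays, and 12 h replicates 1, 2 and 5 lay above the undifferentiated range while replicates 3 and 4 lay below it.

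The Bcl2l11 difference was 1.02 (interval 0.41 to 1.63) between the times, and a second probe set past the filter met the rule as well, at 0.83. Gadd45g, a stress and growth arrest protein, averaged 4.87 ± 0.64, 4.82 ± 0.68 and 5.55 ± 0.59 at 0, 12 and 24 h. With 24 h replicates 4 and 5 alone its difference from 12 h was 0.22, and with replicates 1, 2 and 3 alone it was 1.06. Map4k4, a kinase upstream of JNK, differed by 0.76 with its brightest probe set, by -0.07 with the next and by 0.02 with the third. Peli1, a ubiquitin ligase, and Hipk2, a nuclear kinase, are named after their values were seen, with differences of 0.65 and 0.64. Of the 33 genes of the FoxO, autophagy and growth arrest list past the filter, Gadd45g is the 1 found among the 50. At 24 h 13 were called higher and 2 lower than in undifferentiated cells, beside 12.7% and 19.4% of all genes. At 24 h against 12 h 0 of the 33 were called, and the list median was 0.20.

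Transcription and RNA genes (6 of the 50) had the narrowest range of differences, 0.60 to 0.64. Lsm14b read 4.29, 4.13, 4.28, 4.30 and 4.59 in undifferentiated cells, 4.14, 4.53, 4.49, 4.43 and 4.71 at 12 h, and 4.90, 5.14, 5.08, 5.34 and 4.86 at 24 h. All 24 h arrays lay above all arrays of both other groups, with the smallest standard error of the 50 genes (0.13). Bach1, a heme-regulated repressor, read 3.91, 4.05, 4.52, 4.42 and 4.35 in undifferentiated cells, 4.52, 4.33, 3.62, 3.50 and 4.41 at 12 h, and 4.82, 4.63, 4.52, 4.83 and 4.76 at 24 h. Its 24 h arrays cleared the others by a small gap. The fainter Bach1 probe set differed by 0.03 between the times.

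Smad4, the common mediator of TGF-beta and BMP signals, and Xist, the RNA that silences an X chromosome in female cells, each differed by 0.62 with the probe set used. Probe sets of lower signal disagreed in sign: -0.07 for 1 of 2 others of Smad4, and -0.23 and -0.42 for those of Xist. Elf1, an ETS factor, and Zfp36l1, which destabilises AU-rich mRNAs, are named after their values were seen and differed by 0.62 each. Of these 6 genes, 3 were called at 24 h against undifferentiated cells.

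Cytoskeletal and junction genes (8 of the 50) ran from the faintest to the brightest probe sets. Rhpn2 read -0.16, -0.02, 0.61, 0.27 and -0.10 in undifferentiated cells, 0.19, 0.51, -0.07, -0.14 and 0.45 at 12 h, and 1.95, 0.72, 1.40, 1.01 and 1.08 at 24 h. All 24 h arrays lay above all arrays of both other groups. The 24 h minus 12 h difference was 1.05 (interval 0.60 to 1.50), and no fold is given because the means at 12 h and in undifferentiated cells both lay under the filter level. Its mean over all arrays, 0.513, lay just past the filter level of 0.512, and it passed through the 24 h arrays alone. With each array left out in turn, Rhpn2 was no longer called in 11 of 15 cases.

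The groups separated fully between 24 h and 12 h in 4 of the 50 genes, Rhpn2, Tle4, Bach1 and Lsm14b, beside 0.708% of all genes with all 24 h arrays above all 12 h arrays. In 3 of them, all but Tle4, the 24 h arrays also lay above all undifferentiated arrays (0.506% of all genes). The 24 h arrays lay above all undifferentiated arrays in 23 of the 50 (9.04% of all genes). The rule used these values, so the shares are given side by side without a reading.

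**Figure D2:**
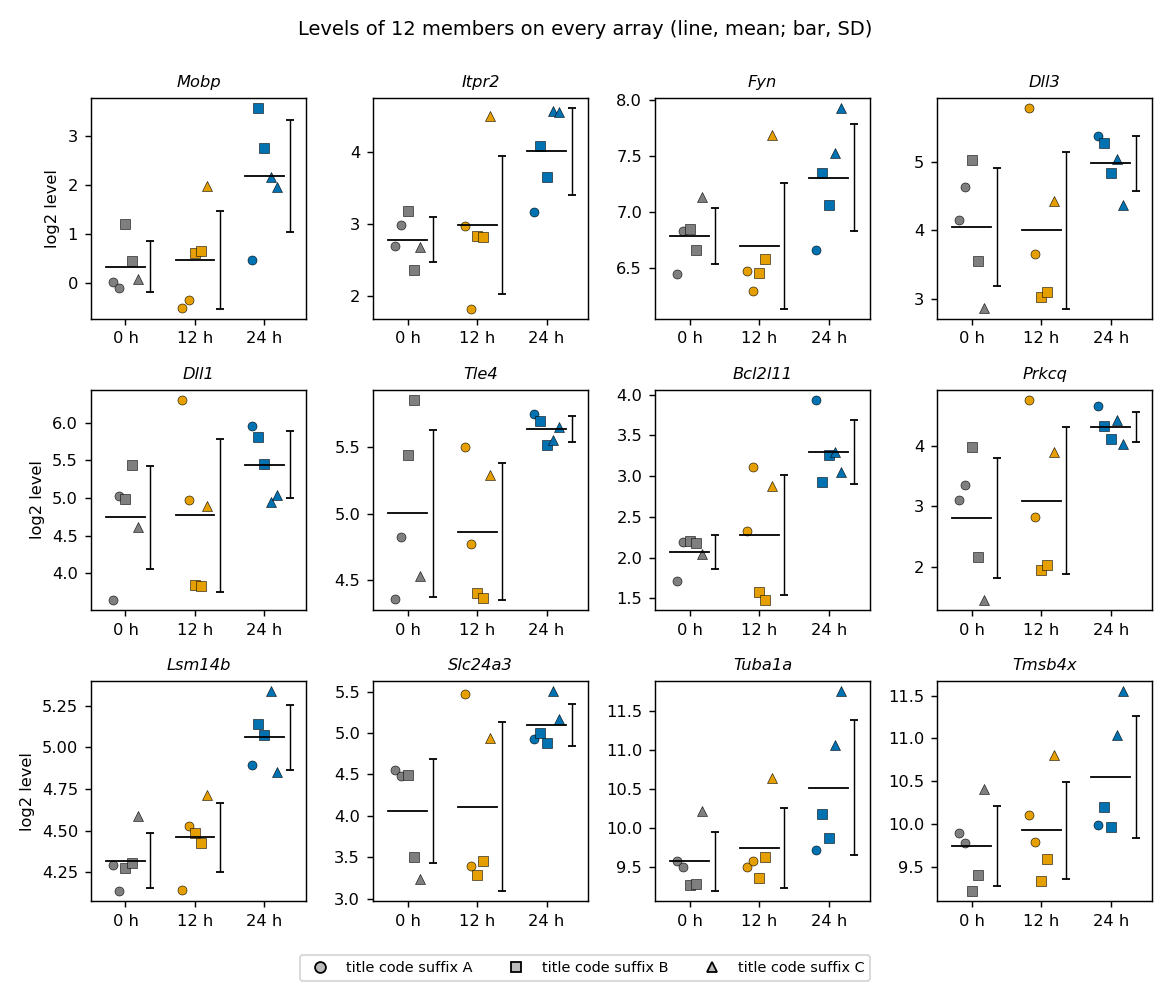
Log2 level of 12 of the genes on each of the 15 arrays, at 0 h (undifferentiated), 12 h and 24 h; lines are group means, bars SDs of 5 arrays, and the marker shape gives the title code suffix. The 12 h arrays split in most panels, with replicates 1 (circle) or 5 (triangle) among or above the 24 h arrays and the suffix B arrays (squares) low, whereas Lsm14b has all its 24 h arrays above the rest.

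Tuba1a, an alpha-tubulin of growing neurites, read 9.58, 9.51, 9.28, 9.29 and 10.22 in undifferentiated cells, 9.51, 9.58, 9.37, 9.63 and 10.64 at 12 h, and 9.72, 10.18, 9.88, 11.06 and 11.75 at 24 h. Tmsb4x, the actin-sequestering thymosin beta 4, read 9.90, 9.78, 9.21, 9.40 and 10.41 in undifferentiated cells, 10.10, 9.78, 9.34, 9.59 and 10.81 at 12 h, and 9.98, 10.20, 9.96, 11.04 and 11.56 at 24 h. In both genes the highest array of each group carried suffix C, and 24 h replicates 1, 2 and 3 overlapped the other groups. Both intervals of the 24 h minus 12 h difference held 0 (0.77, -0.01 to 1.55, for Tuba1a; 0.62, -0.13 to 1.38, for Tmsb4x). Dynll1 and Dynll2, light chains of dynein, differed by 0.69 and 0.84, and all probe sets of both genes past the filter met the rule (3 of Dynll1 and 2 of Dynll2). Septin8, Trio and Pkp4, a plakophilin-like junction protein, are named after their values were seen and differed by 0.61, 0.62 and 0.69.

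Membrane trafficking genes (6 of the 50) were all called higher at 24 h than in undifferentiated cells, beside 34 of all 50 and 12.7% of all genes. The rule used these values, so the count describes the selection. The sorting nexins Snx22 and Snx18 differed between 24 h and 12 h by 0.79 and 0.61, and Bbip1, a subunit of the BBSome of primary cilia, by 0.80. A second Snx18 probe set differed by -0.01. Vps37b, an ESCRT-I subunit, Tbc1d14, a Rab regulator of autophagy, and Dennd11, a DENN domain protein, are named after their values were seen and differed by 0.62, 0.66 and 0.66.

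The last 6 genes have other membrane or metabolic roles. Slc24a3, a potassium-dependent sodium and calcium exchanger, read 4.55, 4.48, 4.49, 3.50 and 3.24 in undifferentiated cells, 5.47, 3.40, 3.29, 3.45 and 4.94 at 12 h, and 4.93, 5.00, 4.88, 5.51 and 5.17 at 24 h. Its 24 h arrays lay above all undifferentiated arrays, and 12 h replicates 1 and 5 lay among them. Between 24 h and 12 h it differed by 0.99 (interval 0.16 to 1.82). Gp1bb, a platelet glycoprotein subunit, differed by 0.96, with means of 1.68 ± 0.49, 1.70 ± 0.58 and 2.65 ± 0.36 at 0, 12 and 24 h. Prom1, the stem cell surface protein prominin, differed by 0.79 and was higher at 24 h within each of the 3 suffixes, by 0.89, 0.95 and 0.82. Abhd4, a lipid hydrolase, Tpt1, the translationally controlled tumour protein, and Dbi, the acyl-CoA-binding protein, differed by 0.72, 0.65 and 0.64.

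**Figure D3:**
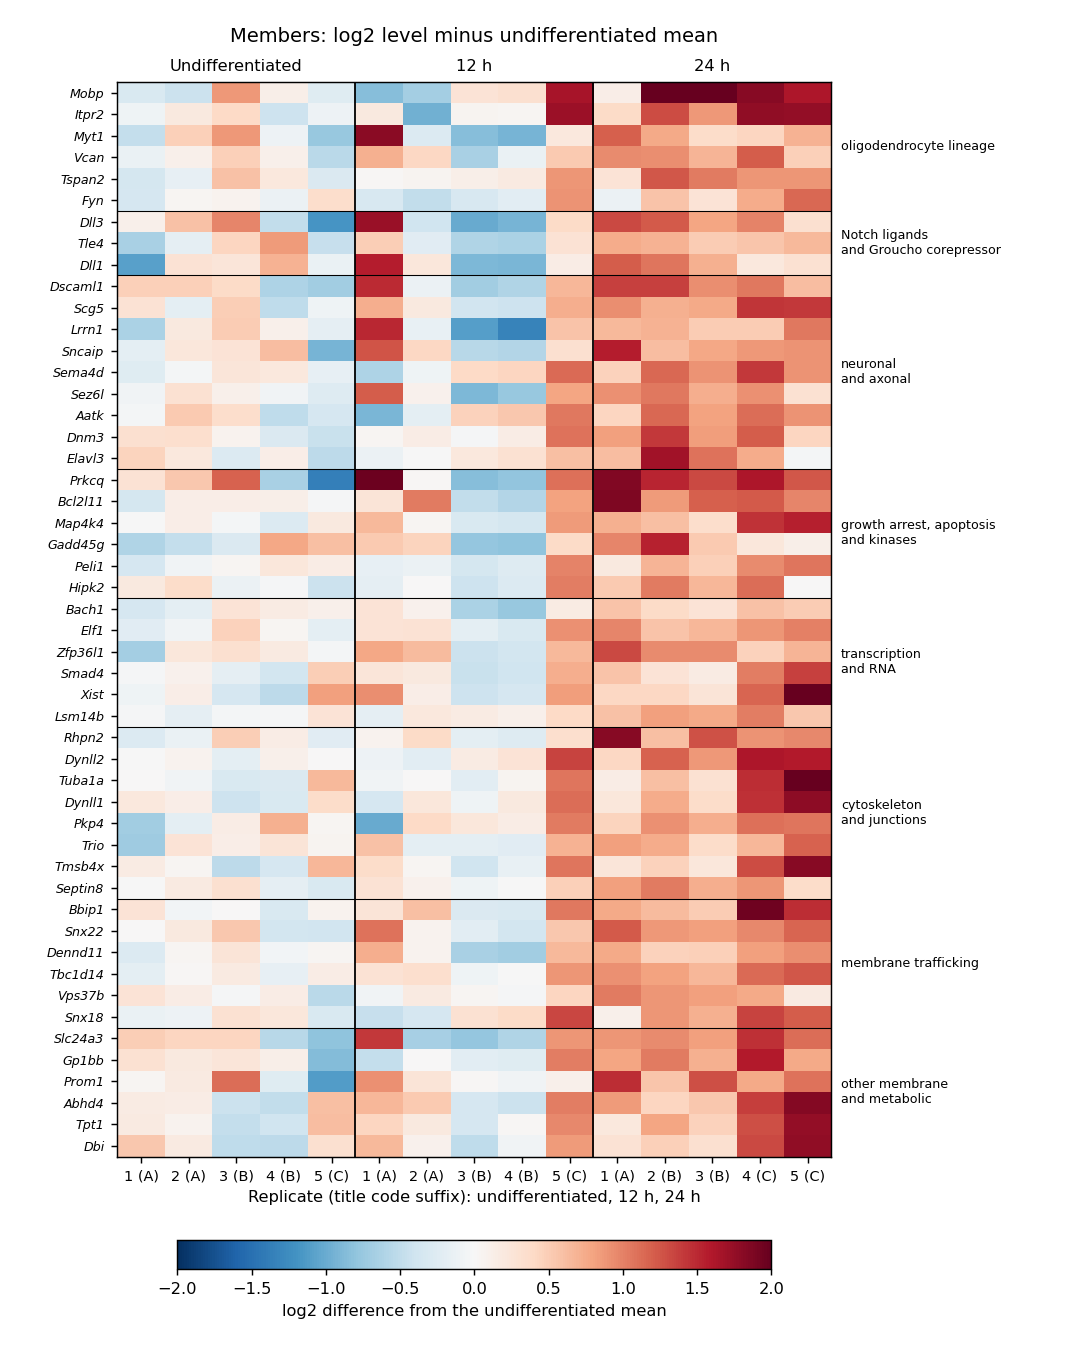
Log2 level of each of the 50 genes (rows, grouped by role) on each array (columns, with replicate and title code suffix) minus the gene's mean in undifferentiated cells; colours stop at 2.0 in either direction. The 12 h block is uneven, with replicate 5 red in most rows and replicates 3 and 4 pale or blue, while the 24 h block is red in nearly all rows.

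Across the 50 genes the flat mean at 12 h came from arrays that lay on both sides of the undifferentiated mean. The median over the 50 genes, as a difference from the undifferentiated mean, was -0.05, 0.13, 0.24, -0.06 and -0.15 on the undifferentiated arrays, 0.29, 0.08, -0.33, -0.26 and 0.84 on the 12 h arrays, and 0.76, 0.84, 0.71, 1.08 and 1.03 on the 24 h arrays. The 12 h replicate 5 array thus stood within the 24 h range, while 12 h replicates 3 and 4 stood below the undifferentiated range. The highest 12 h array was replicate 5 in 29 genes (14.3% of all genes), replicate 1 in 19 (27.1%) and replicate 2 in 2 (16.4%). Replicate 5 exceeded the lowest 24 h array in 39 genes and the 24 h mean in 20. Where replicate 1 was the highest 12 h array, it exceeded the 24 h mean in 12 of 19 genes, among them Dll1, Dll3, Lrrn1, Myt1 and Prkcq.

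The 12 h replicates 3 and 4 were both below the undifferentiated mean in 34 of the 50 genes. They were also the closest pair of all arrays, with an SD of 0.15 between their log2 values, beside 0.28 for the next closest pair. Averaged into 1 array, they left 20 genes that met the rule. Without both of them the median 12 h minus undifferentiated difference of the 50 genes was 0.44, and 34 of the genes were at least 0.3 above the undifferentiated mean. Without 12 h replicate 5 the median was 0.00 and 147 genes met the rule. Leaving out 12 h replicate 1, 3 or 4 alone gave 97, 23 and 18 genes.

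**Figure D4:**
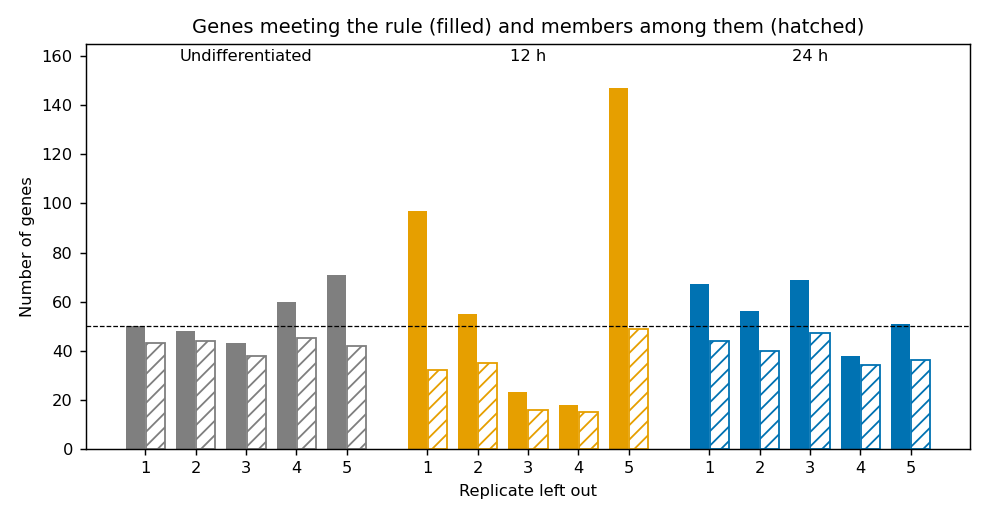
Number of genes that met the rule after leaving out each array in turn (filled bars) and how many of the 50 were among them (hatched bars); the dashed line marks 50. The number was 18 without 12 h replicate 4 and 147 without 12 h replicate 5, and leaving out an undifferentiated or 24 h array gave 38 to 71.

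Of the 50 genes, 4 met the rule whichever array was left out, Slc24a3, Gp1bb, Rhpn2 and Tle4. In these fits the probe set choice and the filter were kept from all 15 arrays, so only the differences between means could fail. Rhpn2, whose mean of 0.513 lay just past the filter level of 0.512, was not tried against the filter anew. Under 5 other ways of processing (suffix as a block, median centring, quantile normalisation, a pseudocount and the mean of a gene's probe sets) 8 of the 50 met it each time. Each of these 8 has a single probe set, so the mean of probe sets could not change its values. Slc24a3 was the 1 gene that met it in all of both, and Gp1bb, Rhpn2 and Tle4 failed only with the mean of probe sets. The median gene met it with 11 of the 15 arrays left out in turn, and Dnm3, the lowest, with 6.

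Within the title code suffixes the 24 h arrays were higher than the 12 h arrays in 46 of the 50 genes in suffix A, 50 in B and 42 in C, and in all 3 suffixes in 38. The medians were 0.56, 1.0 and 0.26. The suffixes differed over the first 12 h: the median 12 h minus undifferentiated difference was 0.29 in suffix A, -0.27 in B and 0.89 in C. Each of these rests on 1 or 2 arrays per group. Suffix C held 2 of the 5 24 h arrays and 1 array of each other group.

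Probe sets of high signal were frequent among the 50 genes. The mean level exceeded 8 in 7 of them (14%), Tmsb4x, Tpt1, Tuba1a, Dbi, Dynll1, Xist and Abhd4, beside 170 of all genes (2.15%), and lay under 2 in 8 (16%) beside 23.9%. Signal depends on the probes as well as the transcript, so levels of different genes were not ranked. The 7 genes had medians of 0.24, 0.48, 0.32, 1.31 and 1.82 above their undifferentiated means on the 24 h arrays, with replicates 4 and 5, both of suffix C, far above the rest. The array medians of all 170 bright genes ran from -0.38 to 0.49 in undifferentiated cells, from -0.27 to 0.56 at 12 h and from -0.09 to 1.0 at 24 h, with a suffix C array highest in each group. With 24 h replicates 1, 2 and 3 alone, 27 of the 50 genes were still higher by at least 0.6 than at 12 h, and 0 of the 7 bright ones were, at 0.12 to 0.32; with replicates 4 and 5 alone the 7 were higher by 1.27 to 1.66.

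The ratio of 3′ to 5′ signal of the actin control, a measure of RNA integrity and labelling, was 1.95 ± 0.24 in undifferentiated cells, 2.36 ± 0.15 at 12 h and 2.78 ± 0.37 at 24 h (SD, n = 5 each). It was 2.59 on 12 h replicate 5, the highest of the 12 h arrays, and 2.95 and 3.21 on 24 h replicates 4 and 5. Its part in the pattern of the 50 genes was not tested. In RNA from whole cultures, more cells of a type and more RNA per cell cannot be told apart.

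**Figure D5:**
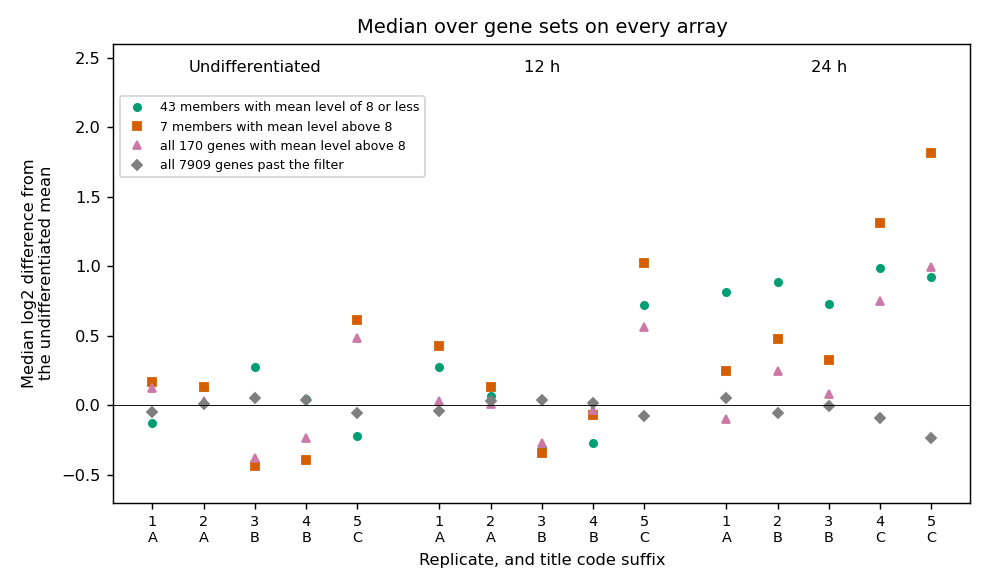
Median difference from the undifferentiated mean (y axis, log2) on each array (x axis, replicate and title code suffix) for the 43 genes with mean level of 8 or less, the 7 above 8, all 170 genes above 8 and all 7909 genes. The 43 genes stand at 0.73 to 0.99 on the 24 h arrays and from -0.30 to 0.72 on the 12 h arrays, whereas the 7 bright genes reach 1.31 and 1.82 on 24 h replicates 4 and 5.

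Several probe sets were available for 30 of the 50 genes. In 23 genes another probe set passed the filter, 34 in all, and of these 27 were higher and 7 lower at 24 h than at 12 h, with a median difference of 0.36. Of the 34, 7 were higher by at least 0.6 and 6 met the rule in full. The sign was opposite to that of the probe set used in 5 genes, Map4k4, Smad4, Snx18, Vcan and Xist. These probe sets were hybridised with the same RNA and are not further replicates.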

How the data were processed

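RNA from 15 samples was hybridised to 1 Affymetrix array each, with 5 arrays per group. The table deposited by the authors holds 1 log10 value per probe set and array (22690 probe sets). The submitters' processing notes name MAS5; no source used here gives its settings or scaling. The log base was read from the hybridisation spike-ins, whose deposited log10 values gained 0.98 ± 0.05 (SD, n = 15 arrays) for each log10 step of concentration. Values were multiplied by 3.3219 to give log2 and used without further normalisation or pseudocount. Leaving out controls, 20380 of 22626 probe sets carried a single gene symbol in the platform annotation and were used. A gene's brightest probe set by mean represented it, and genes above the 40th percentile of probe set means (0.51) were kept. Limma 3.58.1 in R 4.3.3 fitted a mean per group over all 7909 genes with a variance trend and Benjamini-Hochberg adjustment, and gave the standard errors and 95% intervals. A gene was called at an adjusted p under 0.05. The fit was tested on simulated data. Precision is limited by the number of arrays.

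The 50 genes, the gene lists and the role groups were chosen with earlier results of these data known. Genes were named by rule: the 25 largest 24 h minus 12 h differences, up to 4 of each list, the genes whose groups do not overlap, the bright ones, those at the limits, and those with probe sets of opposite sign. A few others are marked as named after their values were seen. Replicate numbers follow the order of the samples. Consecutive title codes form 6 runs, 4 of which hold an array of each group, and the labels do not say what a run is. Deviations from the group means correlated above 0.1 in 12 of 13 pairs of arrays from the same run, against 14 of 62 other pairs across groups, so the runs were tried as a block and not used in the reported fit. Alternatives changed the labels, scaling, filter, probe set choice, variance model, blocks, limits and single arrays. RefSeq promoter windows gave the sequences and the printed coordinates, and other gene coordinates and proteins were not used here.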

Additional observations from a re-analysis of the deposited data

Results flagged for a closer look

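Each of the 3 groups was checked in each of the 50 genes, 150 groups in all, for an array that stood apart from the other 4 by a gap of over 0.71 of the group's range (Dixon's 95% limit for 5 values). It was found in 8 of them (5.33%), and in 6.4% of the groups over all genes. The groups share the same 15 arrays and the rule used these values, so the share cannot be set against chance. At 12 h the array that stood apart was replicate 5, above the rest, in 5 genes: Tuba1a (10.6, next highest 9.63), Dnm3 (1.47, next highest 0.54), Peli1 (6.69, next highest 5.58), Tspan2 (1.98, next highest 1.28) and Fyn (7.69, next highest 6.58), as log2 levels. At 24 h replicate 1 stood above the rest for Sncaip (5.28, next highest 4.59). In undifferentiated cells replicate 5 stood below the rest for Gp1bb (0.81, next lowest 1.79) and replicate 1 for Trio (4.30, next lowest 5.06).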

How the results depend on the processing

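Leaving out suffix C or 24 h replicates 4 and 5, and the fixed block of runs, were added after seeing the data. The number of genes meeting the rule, 50, was 7 by the file codes, 110 with median centring, 26 with the mean of a gene's probe sets, 20 with 12 h replicates 3 and 4 averaged, 33 with a 12 h limit of 0.2, 87 and 11 with a limit of 0.5 and 0.8 on the later difference, and 146 without suffix C. It ran from 18 to 147 with 1 array left out. Members called at 24 h against 12 h, 1 as reported, were 9 with the suffix as a block, 7 with runs of title codes as a random block, 0 with the runs as a fixed (replicate) block, 5 without suffix C and 2 with quantile normalisation. They were 0 by the file codes, without the variance trend, without the filter, with the 60th percentile filter, with the mean of probe sets, with only the groups compared, with 12 h replicates 3 and 4 averaged and without 24 h replicates 4 and 5. With 1 array left out they ran from 0 to 18, the highest without 12 h replicate 5. Against undifferentiated cells, 34 called at 24 h became 0 by the file codes, 20 with the mean of probe sets, 13 without suffix C and 14 without 24 h replicates 4 and 5, and ran from 22 to 38 with 1 array left out; the 0 called at 12 h stayed at 0 in 31 fits. The 24 h minus 12 h differences of 39 named genes took 971 other values, of which 897 counted as unchanged. That meant within the spread between arrays or, for refits of Rhpn2, the called gene, still called. Of the rest, 61 were outside the spread and 13, all of Rhpn2, were no longer called. Apart from the file codes 922 of 932 were above 0. With the runs as a replicate block 49 genes met the rule and 36 of the 50 were called at 24 h against undifferentiated cells. Which reading of the sample codes is right was not tested, faint probe sets near the filter have little signal over background, and the cause of the shifts with single arrays was not tested.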
